A study of Arabidopsis thaliana with 5 samples.

Results

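MicroRNA (miRNA) genes were examined here for chromatin binding of TREE1, a protein that the series title places beside EIN3, the main transcription factor of the ethylene pathway. The members were all 326 nuclear gene records with the biotype miRNA on chromosomes 1 to 5, out of 37899 nuclear gene records in the RefSeq table of the Arabidopsis thaliana genome. The rule that chose them uses only the annotation, although it was set with earlier results of these data known. A record counted as near binding in a library when the summit of a peak lay inside it or within 1000 bp of either end. Chromatin immunoprecipitation sequencing was done with an antibody against green fluorescent protein on shoot tissue of seedlings grown for 3 days in the dark, all of 1 line (TREE1p::TREE1-GFP in the titles, pTREE1:TREE-GFP in the genotype label) in which the TREE1 promoter drives the tagged protein. Seedlings had 4 h of hydrocarbon-free air (1 library) or 4 h of the same air with 10 ppm ethylene (2 libraries, replicates 1 and 2), and each treatment had 1 input library without antibody. The ethylene libraries are called ethylene 1 and ethylene 2 below. Air against ethylene is therefore a comparison without replicates on 1 side, and nothing in the labels states that the 2 ethylene replicates were separate batches of seedlings. Air had 8602 peaks, ethylene 1 had 9156 and ethylene 2 had 9958, from 9325092, 5884897 and 9459860 tags kept after duplicate removal. Ethylene library 1 was the shallowest, and the authors called both ethylene lists against 1 shared input.

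Plant miRNA genes are transcribed by RNA polymerase II into long primary transcripts. The nuclease DCL1, with its partners HYL1 and SE, cuts a hairpin out of the transcript, and the mature small RNA is loaded into AGO1, where it directs the cleavage or silencing of matching mRNAs. Records of the RefSeq table describe roughly the hairpin, with a median length of 144.5 bp and a range of 59 to 689 bp, so the start of the primary transcript usually lies outside the record. Many deeply conserved families act on transcription factors of growth and development, and others act on nutrient and copper homeostasis. EIN3 is known in Arabidopsis to repress MIR164 genes in ageing leaves, which connects the ethylene pathway with this class of genes.

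Fewer miRNA records than gene records in general were near a summit. There were 60 such records in air (18.4%, Wilson 95% interval 14.6 to 23.0%), where 31.3% of all nuclear gene records were near a summit. In ethylene 1 there were 59 (18.1%, 14.3 to 22.6%), against 33.2% of all records. Ethylene library 2 had 57 (17.5%, 13.7 to 22%), against 33.5% of all records. These intervals cover counting error only. The 3 libraries thus gave nearly the same number of records, and in each the share was below that of all records.

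How miRNA records compared with coding genes depended on where distance was measured from. Protein-coding records, with a median length of 2078 bp, were near a summit for 36.2% in air, 38.5% in ethylene 1 and 38.8% in ethylene 2. Measured from the midpoint of each record, which gives long and short records windows of 1 size, the coding shares were 11.6, 12 and 12.5% and the miRNA shares 17.2, 17.8 and 17.2%. The order of the 2 kinds of gene therefore turned with this choice, which was made after the data were seen. At a coding record of median length the midpoint window ends inside the record and leaves out its flanks. At a miRNA record of median length it takes in the flanks. Short noncoding records of other kinds had higher shares than miRNA records from either starting point. Transfer RNA records, with a median length of 73 bp, were at 54.4, 54.7 and 56.2%, small nucleolar RNA records at 39.7, 49.5 and 50.2%, and small nuclear RNA records at 35.4, 32.9 and 31.7%, all measured from the record. Long noncoding RNA records stood at 26.5, 27.2 and 28.8%, and pseudogenes at 3.57, 3.73 and 3.55%.

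**Figure D1:**
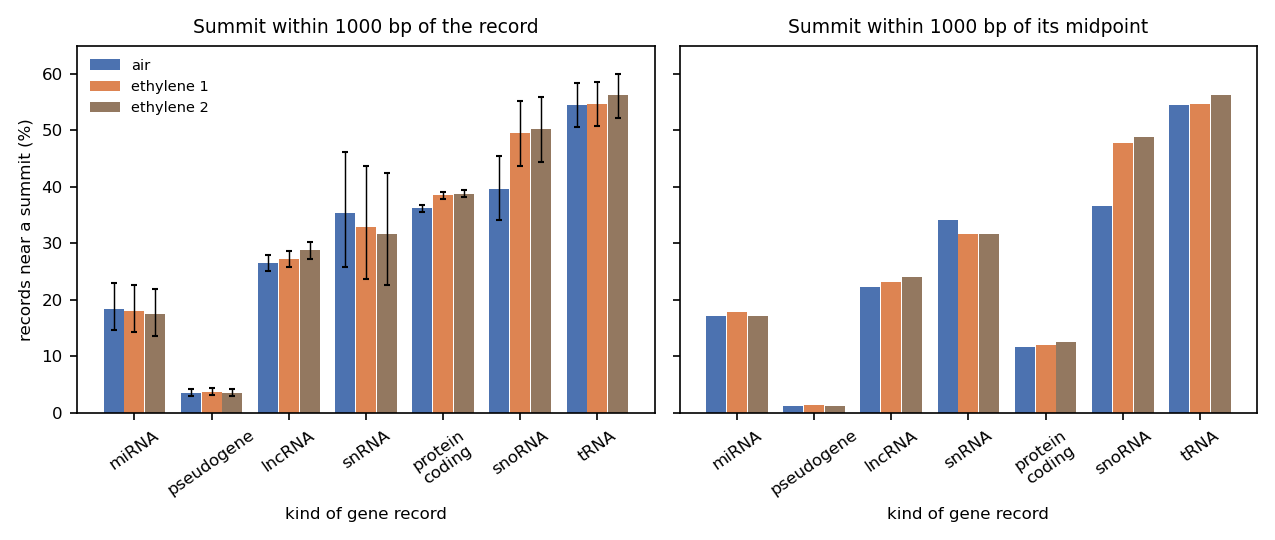
Share of gene records of 7 kinds with a summit within 1000 bp of the record (left, bars with Wilson 95% intervals for counting error) or of its midpoint (right), in percent of records, for air and both ethylene libraries. The miRNA records stay between 17 and 19% in both panels, while protein-coding records stand above them on the left and below them on the right.

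Of the 326 records, 86 (26.4%) were near a summit in 1 or more libraries, where 45.5% of all gene records were. All 3 libraries shared 35 of them (10.7%, against 20.1% of all gene records). Both ethylene libraries without air had 7 (2.15%, against 5.22%). Air paired with ethylene 1 at 5 records (1.53%, against 3.59%) and with ethylene 2 at 8 (2.45%, against 3.53%). Air alone had 12 (3.68%, against 4.07%), ethylene 1 alone 12 (3.68%, against 4.3%) and ethylene 2 alone 7 (2.15%, against 4.7%). The remaining 240 records (73.6%) had no summit within 1000 bp in any library.

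The 35 records shared by all libraries came from 29 of the 215 families. By number they were MIR156f, MIR156h, MIR159a, MIR161, MIR166a, MIR166e, MIR168a, MIR168b, MIR398a, MIR398b, MIR398c, MIR399c, MIR399d, MIR404, MIR407, MIR408, MIR472, MIR776, MIR779, MIR823, MIR828, MIR835, MIR844, MIR861, MIR2933b, MIR4245, MIR5016, MIR5633, MIR5634, MIR5651, MIR5657, MIR5659, MIR5999, MIR8121 and MIR8167c. At 33 of the 35, 1 merged region held a summit of each library. The summits of the 3 libraries in that region lay within 2 to 249 bp of each other (median 72 bp), and within 100 bp at 24 records. The exceptions were MIR407 and MIR156f, whose calls rested on different regions in different libraries.

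The peaks near miRNA records were of ordinary strength for their lists. Fold enrichment, the authors' ratio to the local background, ranks peaks within 1 list only, since depth and input differed between lists. The 64 peaks near miRNA records in air had a median fold of 3.09 (list median 3.11), the 62 in ethylene 1 had 3.87 (3.99) and the 60 in ethylene 2 had 3.32 (3.39). The list median was exceeded by 48.4, 45.2 and 43.3% of them. In the top 10% of their lists by fold were 7, 5 and 5 of them, close to 10% of the 64, 62 and 60 peaks.

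A pair of records stood at the top in every library. MIR861, a family of 1 record, had a peak of 6.11-fold in air (rank 38 in the list), 8.02-fold in ethylene 1 (rank 107) and 6.56-fold in ethylene 2 (rank 104). This peak ran from 17838185 to 17838721 of chromosome 3 (TAIR10) in air, and its summits lay 220, 253 and 220 bp from the record and 488, 521 and 488 bp from AT3G48200, the nearest coding gene. MIR168b had 5.01-fold in air (rank 180), 6.58-fold in ethylene 1 (rank 276) and 6.87-fold in ethylene 2 (rank 78). Its air peak ran from 18358787 to 18359471 of chromosome 5. The summits lay 237, 263 and 258 bp from the miRNA record but only 127, 101 and 106 bp from the coding gene AT5G45310, so the position alone assigns this peak to neither gene.

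Behind these came MIR166e, whose miRNA targets the class III homeodomain-leucine zipper genes that set leaf polarity. Its peak reached 4.51-fold in air (rank 386), 4.6-fold in ethylene 1 (rank 2141) and 5.06-fold in ethylene 2 (rank 437). The 3 summits fell within 2 bp of each other, 719 to 721 bp from the record, which was the tightest placement of the shared records. No coding record lay within 1000 bp of MIR166e, although AT5G41908 was 672 to 674 bp from the summits.

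Among the other records with a low sum of fold ranks, MIR398b and MIR399c belong to nutrient families. MIR398b had 3.41-fold in air, 5.1-fold in ethylene 1 and 4.4-fold in ethylene 2, at ranks 2525, 1136 and 1033. MIR399c, of a family induced by phosphate starvation, had 3.5-fold, 5.3-fold and 3.84-fold at ranks 2138, 908 and 2486. Both peaks were above the list median in all libraries.

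MIR5657 lay inside the coding gene DEG14, and its summits fell in the record in air and ethylene 1 and 15 bp from it in ethylene 2, with folds of 4.09, 5.66 and 3.81. At MIR844 the summits lay inside the coding gene AT2G23348 in all libraries, with folds of 3.91, 4.8 and 4.08. MIR835 had 2 sites, each with a summit of every library. The site beside EMB1793 had 3.65-fold in air, 3.43-fold in ethylene 1 and 3.38-fold in ethylene 2, and the one inside AT1G76065 had 3.3, 4.46 and 4.44-fold. The site with the higher fold in air thus had the lower fold in ethylene. By the deposited score the order in air was the reverse, 63.36 beside EMB1793 and 87.12 inside AT1G76065. The scores were 106.41 and 105.6 in ethylene 1, and 59.01 and 130.61 in ethylene 2. At these 3 records a coding gene was as near to a summit as the miRNA record or nearer in each library.

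MIR8121 had 3.97-fold in air, 4.99-fold in ethylene 1 and 3.67-fold in ethylene 2, with summits 828 to 890 bp away. For MIR2933b the folds were 4.17, 4.43 and 3.72, with summits 876, 915 and 913 bp from the record and at most 15 bp from AT3G47250. MIR5659 had 3.93, 4.32 and 3.24-fold, with summits 38 to 103 bp from RPL27, a ribosomal protein gene. It was the only miRNA record with a transfer RNA record within 1000 bp. The peaks near these 3 records thus lay near the outer limit of the window, and for MIR2933b and MIR5659 much nearer to the coding gene.

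MIR156f, whose miRNA restrains the SPL genes of the juvenile-to-adult transition, was the twelfth record by rank. In air it had a broad peak from 9136217 to 9138968 of chromosome 5 at 4.38-fold (rank 475), with its summit 954 bp from the record. A separate, weaker air peak from 9135704 to 9136125 had 2.93-fold and a summit 156 bp from the record. Ethylene library 1 had 4.27-fold with a summit 950 bp away, and ethylene 2 had 3.47-fold with a summit 298 bp away. The shared call at MIR156f therefore did not stand for 1 shared site.

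**Figure D2:**
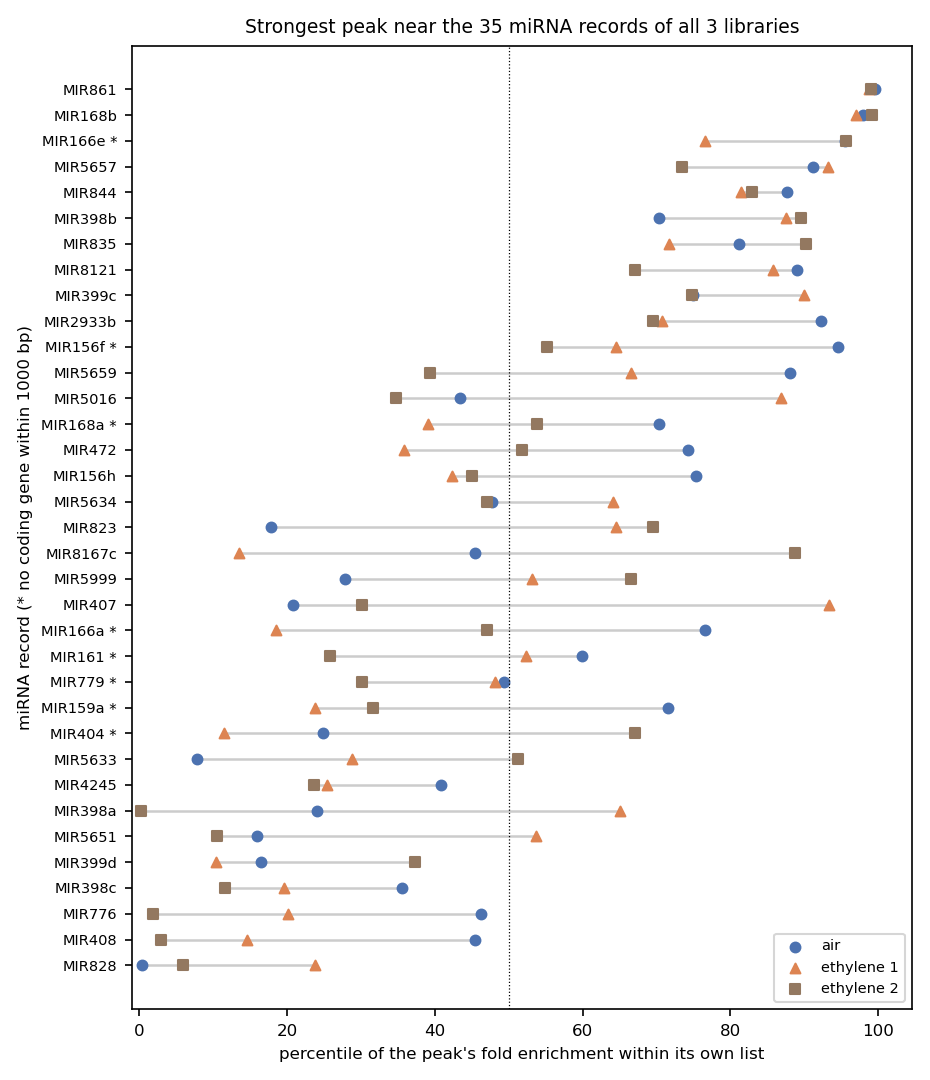
Percentile of the fold enrichment of the strongest peak near each of the 35 miRNA records shared by all libraries, within the peak list of its own library, with 1 point per library and a grey line over their range. MIR861 and MIR168b lie between the percentiles 97.0 and 99.6 in all libraries, and the lowest records, such as MIR828 and MIR408, lie below the median in all of them.

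There were 5 families with 2 or more records near a summit in all libraries, namely MIR156, MIR166, MIR168, MIR398 and MIR399. MIR398 was complete at 1000 bp, with all 3 records near a summit in each library. It was not complete at 500 bp, where MIR398c left the shared records, nor at a score of at least 100 (10 times the negative log10 of the deposited p-value), where MIR398b alone remained in all libraries. Its miRNA silences copper/zinc superoxide dismutase genes when copper is scarce. MIR398a had folds of 2.79 in air, 4.28 in ethylene 1 and 2.28 in ethylene 2, the last at rank 9933 of 9958. MIR398c had 2.93, 3.44 and 2.82, and MIR398b the higher values given above. MIR398a and MIR398c were thus below the list median in air and ethylene 2, and MIR398b was above it throughout.

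MIR398b and MIR398c lie at either end of the coding genes AT5G14550 and AT5G14560 on chromosome 5, with separate peaks. The MIR398b peak ran from 4690058 to 4691094 and the MIR398c peak from 4693907 to 4694432 in air. Summits of the strongest MIR398b peaks lay 382, 330 and 444 bp from the miRNA record and 366, 314 and 428 bp from AT5G14550, which overlaps that record. Those of MIR398c lay 565, 316 and 368 bp from its record and 43, 292 and 240 bp from AT5G14560. MIR408, a second family tied to copper supply, whose miRNA targets plantacyanin and laccase mRNAs, had folds of 3.05, 3.33 and 2.57, below the list median in each library. Its summits lay 398, 264 and 239 bp from the record. The nearest coding genes were closer, AT2G47010 at 19 bp in air and AT2G47020 at 135 and 110 bp in the ethylene libraries.

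Both MIR168 records were near a summit in all libraries. The miRNA of this family limits AGO1, the argonaute that carries most miRNAs. MIR168a had 3.41-fold in air, 3.79-fold in ethylene 1 and 3.45-fold in ethylene 2, with summits 343, 313 and 343 bp from the record and 888, 918 and 888 bp from the nearest coding gene, AT4G19390. Its air peak ran from 10577992 to 10578679 of chromosome 4. At a score of at least 100 MIR168b alone remained in all libraries, as MIR168a scored 93.8 in ethylene 1. MIR168a folds were lower than those of MIR168b in each library, but the summits of MIR168a were nearer to the miRNA record than to any coding gene.

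MIR166 had 3 of 7 records near an air summit and 2 in each ethylene library. MIR166a and MIR166e were shared by all, and MIR166b was near an air summit alone, at 2.87-fold and 238 bp. MIR156 had 2 of 10 records near an air summit and 3 in each ethylene library, with MIR156f and MIR156h in all and MIR156c in both ethylene libraries. For MIR399 the counts were 3 of 6 in air and 2 in each ethylene library. MIR399c and MIR399d were in all libraries, and MIR399b was near an air summit alone, at 2.97-fold and 721 bp. In each of these 3 families most records had no summit within 1000 bp in either ethylene library.

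**Figure D3:**
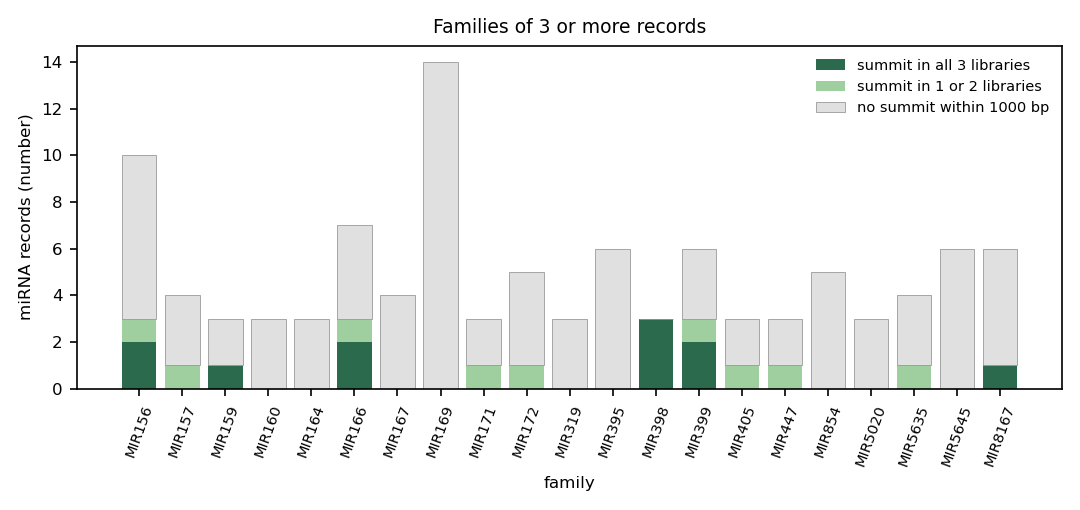
Number of miRNA records in each of the 21 families of 3 or more records, split into records with a summit within 1000 bp in all 3 libraries, in 1 or 2 libraries, or in none. MIR398 is the one family here with all of its records near a summit in every library, and the 14 records of MIR169 have none.

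Of the 21 families with 3 or more records, 9 had no record near a summit in any library. These were MIR160, MIR164, MIR167, MIR169, MIR319, MIR395, MIR854, MIR5020 and MIR5645. Among all 326 miRNA records, 240 (73.6%) had no summit either. Whether 9 such families are more than this share would give was not tested. MIR169, which targets NF-YA subunits, has 14 records, and the nearest summit to any of them was 1285 bp away in air, 1345 bp in ethylene 1 and 1674 bp in ethylene 2. For MIR319, which targets TCP growth regulators, the nearest summits were at 2468, 2485 and 2406 bp. The 6 MIR395 records, of the sulfate family, were at least 2417, 2391 and 2391 bp from a summit. The 5 MIR854 records were the most distant, at 68473, 72236 and 136857 bp or more.

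The MIR164 records, named for their known link to EIN3, were at no summit in these shoots. MIR164a lay 16260 bp from the nearest air summit, and 3651 and 3721 bp from the nearest summits of the ethylene libraries. For MIR164b the distances were 1450, 1627 and 3845 bp, and for MIR164c 16882, 6900 and 23791 bp. No peak overlapped the window of any of the 3 records. MIR160 records, which target auxin response factor genes, were at least 1573, 1483 and 3606 bp from a summit, and MIR167 records, which target others of these genes, at least 1789, 3187 and 3725 bp.

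A list of 26 deeply conserved families, written after the calls had been seen, held 94 of the 326 records. Of these, 20 were near a summit in air (21.3%), 16 in ethylene 1 (17.0%) and 16 in ethylene 2 (17.0%). The other 232 records had 40 (17.2%), 43 (18.5%) and 41 (17.7%). Shared by all libraries were 13 conserved records (13.8%) and 22 others (9.48%). Such a record was found in 7 conserved families, namely MIR156, MIR159, MIR166, MIR168, MIR398, MIR399 and MIR408, while 13 had no record near a summit in any library. The pooled per-library shares of the conserved and the other records thus lay within 5 percentage points of each other. A protein-coding record lay within 1000 bp of 42 conserved and 163 other records. Conserved shares there were 28.6 against 20.9% in air, 23.8 against 23.3% in ethylene 1 and 21.4 against 21.5% in ethylene 2. Without one, the shares of 52 and 69 records were 15.4 against 8.7%, 11.5 against 7.25% and 13.5 against 8.7%. Shared by all libraries were 19.0 against 11.7% with a coding neighbour and 9.62 against 4.35% without. Whether these differences exceed counting error was not tested.

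The 7 records near a summit in both ethylene libraries and not in air were MIR156c, MIR158a, MIR158b, MIR834, MIR4240, MIR5635c and MIR5637. MIR5637 had the lowest ranks, with 4.5-fold and 4.03-fold in the ethylene libraries, 458 and 502 bp from the record, and no air summit within 35841 bp. MIR156c had 3.22-fold at 495 bp and 3.53-fold at 399 bp, with the nearest air summit at 2265 bp. Both records of the MIR158 family were in this group. At MIR158b the summits nearest the record lay 281 and 272 bp away, and at MIR158a 71 and 866 bp away, so that the MIR158a call rested on separate positions. An air peak overlapped the window of MIR4240 and none overlapped those of the other 6.

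The 12 records near an air summit alone were MIR166b, MIR171b, MIR172e, MIR399b, MIR402, MIR822, MIR824, MIR866, MIR4221, MIR5019, MIR5644 and MIR5997. MIR5019 had the highest fold of them, 3.47, with the summit inside the coding gene FZF and 309 bp from the miRNA record. The nearest ethylene summit to this record was 12242 bp away. MIR4221 followed at 3.39-fold and 955 bp. The others ranged from 3.3-fold at MIR402 to 2.7-fold at MIR866. MIR172e, of the family that restrains AP2-like flowering repressors, had 2.79-fold at 159 bp from the record. An ethylene peak overlapped the windows of MIR171b and MIR866, both in ethylene 2, and none overlapped those of the other 10. Folds of these air peaks were thus close to the list median of 3.11.

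Air was paired with ethylene 1 at 5 records, namely MIR447a, MIR780, MIR825, MIR827 and MIR8182. MIR780 had the highest folds of them, 4.87 in air and 5.42 in ethylene 1, at 278 and 181 bp. MIR827, a phosphate-responsive gene, had 2.47-fold and 3.96-fold. It was paired with ethylene 2 at 8 records, namely MIR157d, MIR403, MIR405a, MIR419, MIR2936, MIR5652, MIR5658 and MIR8166. MIR403, whose miRNA targets AGO2, had 2.78-fold at 116 bp in air and 3.32-fold at 81 bp in ethylene 2, with no coding gene within 1000 bp. The ethylene libraries differed from each other at each of these records.

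Ethylene library 1 alone had MIR162a, MIR775, MIR777, MIR778, MIR853, MIR4227, MIR5022, MIR5636, MIR8169, MIR8173, MIR8176 and MIR8184. MIR162a, whose miRNA targets DCL1, had 2.65-fold at 843 bp, with the summit inside NF-YB12. MIR4227 and MIR5022 shared 1 summit and are not separate sites. Ethylene library 2 alone had MIR163, MIR826a, MIR826b, MIR5014a, MIR5024, MIR5661 and MIR10515. MIR826a and MIR826b also shared 1 summit, at 4.06-fold. These 4 were the only records that shared a summit with another miRNA record. Peaks of air and ethylene 1 overlapped the window of MIR10515, with the nearest summits at 1217 and 1040 bp. An ethylene 2 peak overlapped that of MIR853, with the nearest summit at 1022 bp. No peak of another library overlapped the windows of the remaining records of these classes.

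Coding neighbours were common around miRNA genes. A protein-coding record lay within 1000 bp of 205 of the 326 records, and 89 records overlapped one. With a coding neighbour, 46 records were near an air summit (22.4%), 48 near one of ethylene 1 (23.4%) and 44 near one of ethylene 2 (21.5%). Without one, 14 (11.6%), 11 (9.09%) and 13 (10.7%) of 121 were. In each library the share with a coding neighbour was above that without. Of the 35 records shared by all libraries, 27 had a coding neighbour and 8 did not. In all, 68 of the 86 records near a summit in 1 or more libraries had a coding neighbour.

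**Figure D4:**
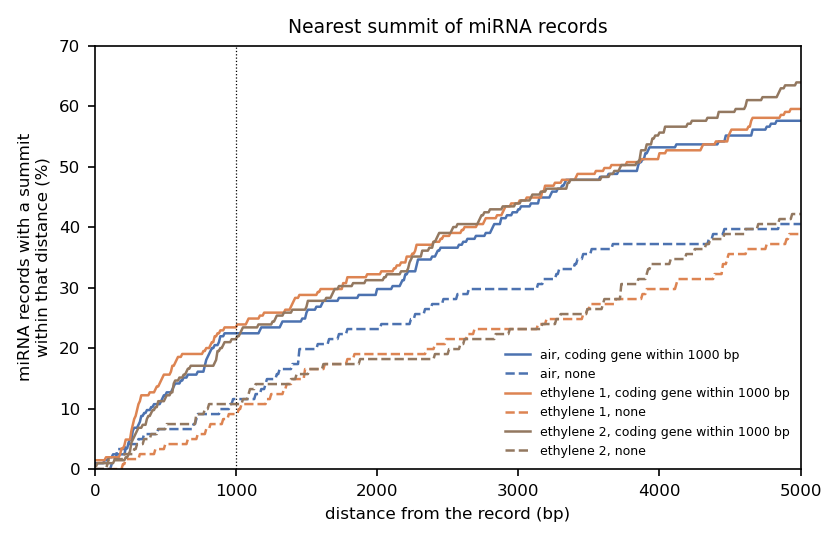
Percent of miRNA records whose nearest summit lies within a given distance in bp, for the 205 records with a coding gene within 1000 bp (solid lines) and the 121 without (dashed lines), in each library. At 1000 bp (dotted line) the solid lines stand at 21.5 to 23.4% and the dashed lines at 9.09 to 11.6%. This order does not hold at the shortest distances, where the air lines cross.

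Summits near miRNA records were more often nearer to a coding gene than to the miRNA record. Each was set against 1 miRNA record (median length 144.5 bp) and against the nearest of 27444 coding records (median 2078 bp). The distance to coding genes was not summarised for all summits of the lists, so these counts do not set summits near miRNA records apart from others. In air, 35 of 64 pairs of record and summit were nearer to a coding gene and 27 nearer to the miRNA record. The counts were 39 and 22 of 63 in ethylene 1, and 37 and 23 of 61 in ethylene 2. The summit was inside a coding gene in 15, 16 and 16 of these pairs and inside the miRNA record in 2, 3 and 1. Median distances to the miRNA record were 471.5, 438 and 447 bp, and to the nearest coding gene 278.5, 183 and 155 bp. MIR5634 was the one record with a summit inside it in all libraries, and it overlaps the coding genes AT4G30750 and AT4G30760.

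**Figure D5:**
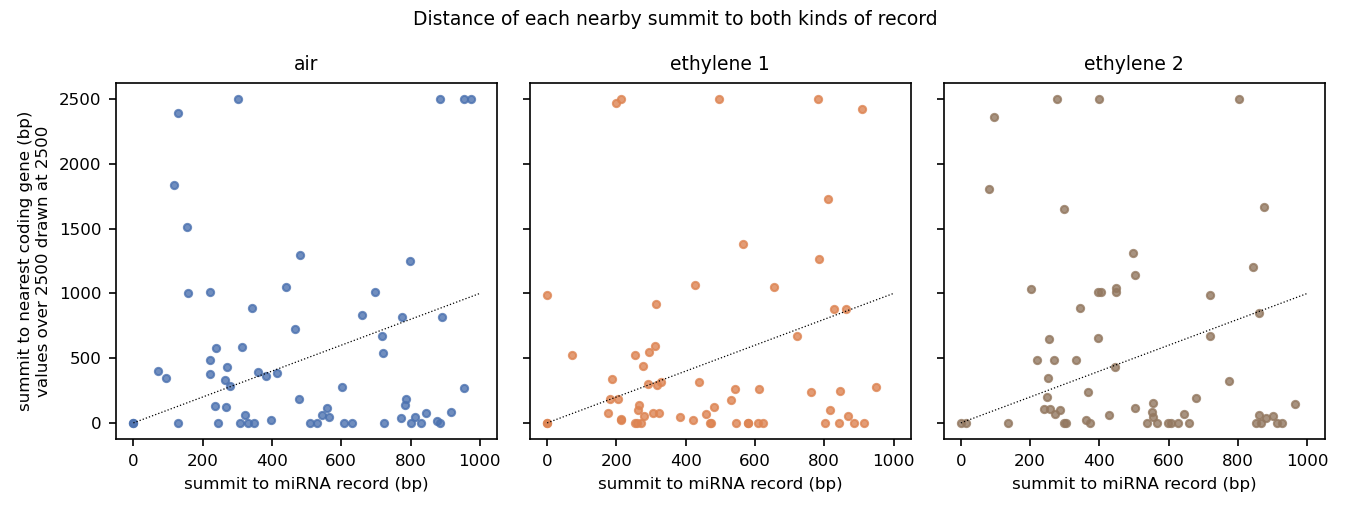
Distance in bp from each nearby summit to the miRNA record (horizontal) and to the nearest protein-coding gene (vertical, values over 2500 bp drawn at 2500), 1 panel per library and 1 point per pair of record and summit. Points above the dotted line are nearer to the miRNA record, as were 27 of 64 in air, 22 of 63 in ethylene 1 and 23 of 61 in ethylene 2.

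The 8 shared records with no coding gene within 1000 bp were MIR156f, MIR159a, MIR161, MIR166a, MIR166e, MIR168a, MIR404 and MIR779. A coding gene could still be near the summit. At MIR156f the strongest summits in air and ethylene 1 lay 270 and 274 bp from AT5G26150. MIR159a, whose miRNA silences the GAMYB-like genes MYB33 and MYB65, had 3.43-fold in air, 3.52-fold in ethylene 1 and 3.14-fold in ethylene 2. Its air peak ran from 27713494 to 27715093 of chromosome 1, and the summits lay 441, 428 and 449 bp from the record and 1053, 1066 and 1045 bp from CDKD1;1. By the deposited score this peak reached 202 in air, 113 in ethylene 1 and 102 in ethylene 2. MIR159a was the one record of the 8 whose peaks scored at least 100 in all libraries.

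MIR161, which targets pentatricopeptide repeat genes, had the nearest summits of these 8. They lay 128, 199 and 96 bp from it, with the nearest coding gene 2364 bp or more away, and folds of 3.24, 4.04 and 3.05. MIR166a had 3.54, 3.42 and 3.35-fold, with summits 301, 214 and 278 bp from the record and 4811 bp or more from any coding gene. MIR779 had 3.1, 3.96 and 3.12-fold at 884, 781 and 802 bp, and MIR404 had 2.8, 3.25 and 3.67-fold at 697, 654 and 718 bp. Peaks at MIR161, MIR166a and MIR779 were therefore far from coding genes, while at MIR404 the gene RECQL2 lay 988 to 1052 bp from the summits.

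The limit of 1000 bp decided some of the calls. MIR866 had an air summit at 974 bp and one of ethylene 2 at 1087 bp, and so counted for air alone. MIR8182 was at 801 bp in air, 885 bp in ethylene 1 and 1010 bp in ethylene 2. For MIR171b the air summit was at 775 bp and that of ethylene 2 at 1043 bp. MIR156j missed the limit in ethylene 1 at 1002 bp. Between 1000 and 1100 bp lay the nearest summits of no further record in air, 5 in ethylene 1 and 7 in ethylene 2, and between 900 and 1000 bp those of 3 records in each.

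Genes of the miRNA machinery were examined as a list of 26, by the same distance of 1000 bp from the record. Of these, 10 were near a summit in air (38.5%, against 36.2% of coding records), 7 in ethylene 1 (26.9%, against 38.5%) and 13 in ethylene 2 (50%, against 38.8%). All libraries shared 6 (23.1%, against 23.3% of coding records), namely HYL1 and SE, both partners of DCL1, the processing factors MOS2 and STA1, AGO1 and SDN2, a nuclease gene of miRNA turnover. SDN2 had the highest folds in the ethylene libraries, 3.75 in air, 7.59 in ethylene 1 and 7.26 in ethylene 2. RACK1A was near a summit in both ethylene libraries and not in air. DCL1 itself, the exportin family gene HST and the argonaute genes AGO2, AGO7 and AGO10 had none in any library. The libraries varied around the background for this list, in both directions.

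Target genes of the conserved families were taken as a list of 55 entries, of which AGO1, AGO2 and DCL1 are also in the list of 26. In air 22 were near a summit (40.0%), in ethylene 1 24 (43.6%) and in ethylene 2 25 (45.5%), against 36.2, 38.5 and 38.8% of coding records. All libraries shared 15 (27.3%, against 23.3%). They were ARF16 of the miR160 targets, PHB, REV and ATHB8 of the miR166 targets, ARF6 and ARF8 of the miR167 targets, AGO1, HAM1, TOE1, TOE2, TIR1, AFB2, AFB3, LCR and GRF3. These shares stood slightly above those of all coding records in each library, a small margin for a list of 55 entries. The list was written with earlier results of these data known, and whether the margin exceeds counting error was not tested.

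Summits at a miRNA family and at its targets did not go together in a fixed way. MIR168 and AGO1 were both near summits in all libraries, with AGO1 at 3.62-fold in air, 3.49-fold in ethylene 1 and 2.68-fold in ethylene 2. MIR166a and MIR166e were shared by all, as were 3 of the 5 listed targets, PHB, REV and ATHB8, while ATHB15 was near a summit in ethylene 1 alone and PHV in no library. In contrast, the auxin receptor genes TIR1, AFB2 and AFB3 were near a summit in all libraries, with TIR1 at 4.21, 4.16 and 4.76-fold, while neither MIR393 record was in any. MIR398 had the opposite pattern, with all its records near summits, CSD1 near one in air and ethylene 2, and CSD2 near none. PHO2, the main target of miR399, also had none.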

How the data were processed

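Reads were aligned with BWA to TAIR10 and peaks called with MACS 1.4.2, per the submitters' processing notes. Per the file headers, each ChIP library was called against the input of its treatment with a p cutoff of 1e-05, 1 tag kept per position and the larger data set scaled to the smaller. Run names in the headers use another protein name, and the one for air has a replicate label 2. Tags per peak are deposited counts, and the fold (a ratio to the local background), the FDR in percent and the score are the authors' values. The deposited summit list adds a signal, the tag pileup, and its positions equalled those of the peak lists.

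Everything else was computed here in Python 3.11.15 (pandas 2.3.3, numpy 2.4.6, matplotlib 3.10.9, scipy 1.17.1). Gene positions came from a RefSeq table of TAIR10.1, without strand or sequence, and none is printed. The planned printing of mature miRNA and promoter sequences was not done, as neither was used here. Printed positions are of peaks, as the authors listed them. Families are the numbers in the miRNA names. The distance steps were checked on simulated summits. No test was run, as the design has 1 air library. The members and gene lists were chosen with earlier results of these data known. Named are all records near a summit, with full values for the 12 of smallest summed fold rank, and for others by family or class. Conserved families and the midpoint window were added after seeing the data. Alternatives varied the distance, the score, list length, replicates and the joining of neighbouring records.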

Additional observations from a re-analysis of the deposited data

How the results depend on the processing

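Counts of miRNA records near a summit moved with the distance and the peak threshold. At 500 bp the 3 libraries had 33, 37 and 32 records, with 18 shared by all (14 with and 4 without a coding neighbour, 16 families), 4 in both ethylene libraries and not air, and 7 in air alone. The 4 were MIR156c and MIR158b, in that class at 1000 bp too, and MIR398c and MIR407, shared by all at 1000 bp. At 2000 bp air, ethylene 1 and ethylene 2 had 89, 89 and 86 records. Of these, 53 were shared by all, 16 of them without a coding neighbour, 12 were in the ethylene pair and 17 in air alone. Of 27444 coding records, 8370, 8949 and 9023 were near a summit at 500 bp and 12139, 12880 and 13085 at 2000 bp. At 1000 bp these counts were 9923, 10562 and 10648. The coding counts thus stayed within a factor of 1.5, while the miRNA counts at 500 bp did not. Coding records were not counted at a score of at least 100. This score left 21, 21 and 19 miRNA records. Shared by all were 9 (8 with and 1 without a coding neighbour, 9 families), and 4 were in the ethylene pair. These 4, MIR823, MIR835, MIR5016 and MIR5651, were shared by all at the main setting, and their air peaks scored below 100. None of the 7 ethylene-pair records of the main setting had a peak with a score of 100. The 9 were MIR159a, MIR168b, MIR398b, MIR399c, MIR844, MIR861, MIR5657, MIR5999 and MIR8121, so MIR398 and MIR168 were then no longer complete. Lists of equal length left 4 records in the ethylene pair and 5 shared records without a coding neighbour. Without either ethylene replicate in turn, 14 to 19 records were near an ethylene summit and not in air, 17 to 20 in air alone, and 40 to 43 were shared, since fewer libraries had to agree. Counting every peak that reached into the window, joining of records within 1000 bp to 304 loci, and the midpoint window kept all counts within a factor of 1.5. No paired analysis was possible because there is 1 air library, whose labels give it no replicate number. The effect of tag depth on missing summits was not tested.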
